A study of Homo sapiens with 9 samples.

Results

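Histone genes were examined in RNA sequencing of OVCAR5 cells, an established human ovarian cancer line. The members were the protein-coding genes of the count table whose GENCODE symbol begins with H1-, H2AC, H2BC, H3C or H4C (called clustered histone genes) or with H2AZ, H2AX, H2AJ, MACROH2A or H3-3 (called variant histone genes), with at least 20 counts in total over 9 libraries. This gave 56 of the 60649 gene identifiers in the table, 48 clustered and 8 variant. Of 80 genes with such a symbol, 24 clustered genes lay under the minimum, and 10 of them had 0 counts in every library. The genes nearest to the minimum were H4C14 with 21 counts and H4C5 with 24 counts inside it, and H2AC4 with 18 counts and H4C15 with 12 counts outside it. H2AC18 and H2AC19 were not analysed here.

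The study asked which transcripts change when METTL3, the catalytic subunit of the RNA m6A methyltransferase, is depleted. Its 9 libraries form groups of 3 named NC, SM2 and SM4, all from stable OVCAR5 lines made by lentiviral transduction and puromycin selection. By label NC is the control, given as parental in the series record, where the methods of the study name a non-targeting hairpin, and SM2 and SM4 are labelled METTL3 knockdown lines. The labels tie neither group to a named hairpin and do not say whether replicates were separate cultures, so p-values measure only the spread between these libraries. METTL3 itself stood at 36.3, 34.4 and 36.6 CPM (counts scaled to library size after TMM normalisation) in NC, at 37.1, 39.8 and 40.0 in SM2 and at 60.6, 57.5 and 62.4 in SM4. Against NC it differed by a log2 of 0.12 ± 0.05 in SM2 (SE, adjusted p = 0.12) and of 0.75 ± 0.05 in SM4 (adjusted p = 2.21e-09) by the quasi-likelihood test of edgeR, so METTL3 RNA was not lower in either group and was higher in SM4. This goes against the labels: SM4 held the most METTL3 RNA, and NC and SM2 held less. METTL3 RNA thus does not follow the labels of control and knockdown, and whether labels were exchanged was not tested. Groups are compared here as labelled, so every direction given against NC is that of the labels and is not a direction of METTL3 loss. For libraries labelled SM4 the source name is a different OVCAR number in each, although their cell line entry reads OVCAR5.

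Libraries held 44103272 to 63693728 counts. Summed epithelial markers (EPCAM, KRT8, KRT18, KRT19 and CDH1) stood at 9910 to 11790 CPM, while summed leukocyte markers stood at 5.32 to 10.6 CPM, fibroblast markers at 21.3 to 26.3 CPM and endothelial markers at 5.42 to 15.2 CPM. Of these low markers, CD14 and PECAM1 were called higher in both SM2 and SM4, and the part of other cells in the histone results was not tested. Epithelial markers were themselves called in 5 of 5 cases in SM2 (3 higher, 2 lower) and in 4 of 5 in SM4 (3 higher, 1 lower), KRT8 by 0.28 and 0.19, KRT19 by 0.19 and 0.30 and CDH1 by -0.25 and -0.37 on the log2 scale. SM2 replicate 3 stood apart, since a chi-square of its counts against the other SM2 libraries gave 13.8 and 16.7 per degree of freedom, where all other replicate pairs gave 4.21 to 6.04. Values without it stand beside the histone genes whose call or size leaned on it.

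Histones are the proteins around which DNA is wound. Core histones H2A, H2B, H3 and H4 form the nucleosome and H1 binds the linker DNA, and most of their genes lie in clusters, are read in S phase and give messenger RNAs that end in a conserved stem-loop in place of a poly(A) tail. The stem-loop is bound by SLBP, and the tail is cut by a machinery that includes the U7 snRNP. Replacement variants such as H2A.Z, H3.3 and macroH2A, and the linker histone H1.10, are made from separate genes with ordinary polyadenylated transcripts throughout the cell cycle. The libraries were made from RNA enriched for poly(A) tails per the labels, and the sources differ on the kit and the read layout.

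The clustered class as the symbols define it held 38 genes of the large 6p22 cluster, 5 at 1q21, 2 at 1q42, 1 at 12p12 (H4C16) and 2 elsewhere, among them H1-10. A histone stem-loop was found in the annotated transcripts of 46 of the 48 clustered members, not in H1-10, and in 1 of 8 variant members, H2AX. It was present in 80 of 20046 protein-coding genes (0.399%) of the annotation. Among members the stem-loop began 24 to 57 bases after the stop codon, and 8 versions of it were present. The most common was shared by 29 members, and all 9 H4 members carried a version whose stem opens with GGCCC. The sequences of 6 members that the results turn on follow on the transcript strand, with the 16 bases of the stem-loop in capitals and 5 flanking bases on either side. Positions are those of the capitals in GRCh38, in the 3′ part of each transcript.

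H2BC12 (chr6:27146366-27146381, minus strand): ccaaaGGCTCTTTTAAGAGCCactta
H4C9 (chr6:27139654-27139669, plus strand): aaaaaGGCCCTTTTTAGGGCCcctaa
H1-2 (chr6:26055744-26055759, minus strand): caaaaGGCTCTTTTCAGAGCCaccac
H2AC25 (chr1:228457369-228457384, minus strand): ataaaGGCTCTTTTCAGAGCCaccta
H2BC26 (chr1:228458538-228458553, plus strand): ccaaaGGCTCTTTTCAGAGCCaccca
H2AX (chr11:119094898-119094913, minus strand): acaaaGGCCCTTTTAAGGGCCaccac

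Of these, H2BC12, H4C9 and H1-2 end 4 to 9 bases after the stem-loop in the annotation, whereas the annotated transcripts of H2AC25, H2BC26 and H2AX run on past it. A poly(A) signal (AATAAA or ATTAAA in the last 50 bases of an annotated transcript) was present in 16 of 48 clustered members, in 8 of 8 variant members and in 85.6% of protein-coding genes.

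Levels per length followed these classes only in part. As RPKM (CPM per kilobase of merged exons, mean of 9 libraries), the 8 variant members ranged from 2.24 to 220 with a median of 42.6, and H1-10 stood at 108. Of the 46 clustered members with a stem-loop, the 14 with a poly(A) signal ranged from 0.0249 to 9.87 with a median of 0.898. The 32 without one ranged from 0.129 to 20.1 with a median of 0.370. In CPM, not divided by length, the medians of these groups were further apart, at 2.49 and 0.214. Merged exons of the 14 run past the stem-loop, as in H2BC26 with 5002 bases, where H2BC12 has 495. The lowest value, 0.0249, was that of H4C14, of whose 50-base stretches 0% were unique in the genome. The ranges of the last pair of groups overlapped, and the highest of the 46 had no annotated poly(A) signal: H2BC12 at 20.1 RPKM, H1-2 at 18.0, H2AC11 at 13.2 and H4C9 at 11.2. RNAs known to lack a poly(A) tail (21 genes of a list such as U1, 7SL and Y RNAs) summed to 8.25 to 13.3 CPM, and of the 2 that could be tested 0 were called in any comparison by edgeR or DESeq2, with 1 at an unadjusted p below 0.05 in SM4 against SM2.

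**Figure D1:**
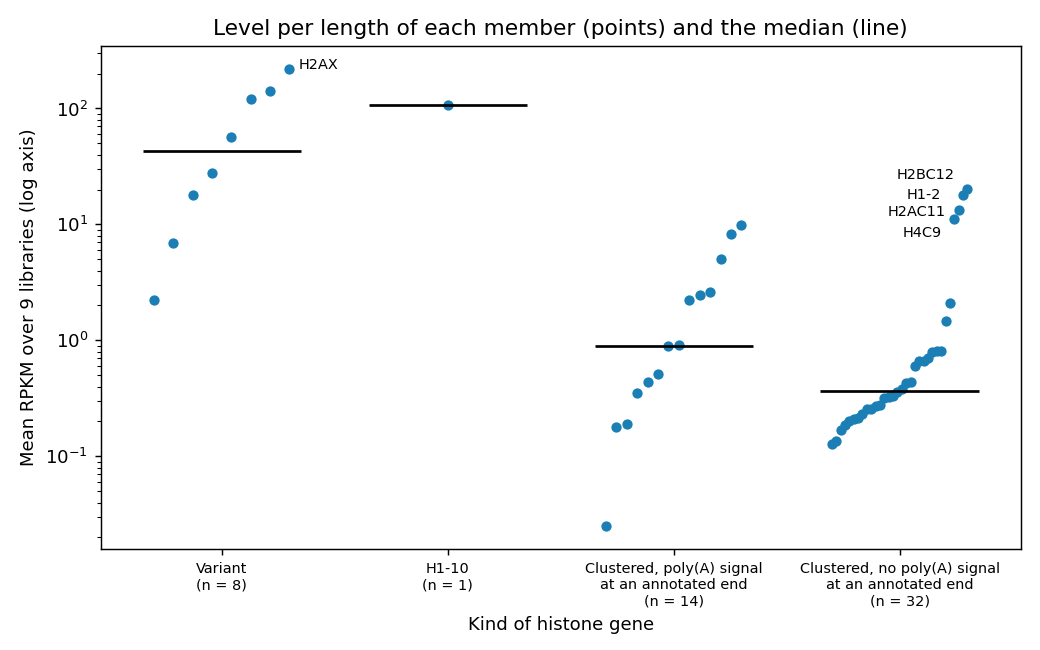
Mean RPKM over 9 libraries on a log axis for 55 of the 56 members (points) and the median (line), by kind of histone gene. The variant median is 42.6, the median of the 14 clustered genes with a poly(A) signal is 0.898 and that of the 32 without is 0.370, with H2BC12, H1-2, H2AC11 and H4C9 above the rest of that group.

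In CPM, 30 of the 46 clustered members with a stem-loop had a mean under 1, 14 lay from 1 to 10, and 2 (H2AC25 and H1-2) exceeded 10. A mean of 1 CPM stood for 44.1 to 63.7 counts per library. Together the 46 took 0.00756% to 0.0117% of the counts of a library. Low counts were more often even than odd: of 202 member values from 1 to 20 counts, 61.9% were even, and over all genes 52.9% to 54.9% of such values were. Counts of a few reads may therefore carry fewer independent observations than their number, and the cause of the excess was not tested. After the filter on low counts, 43 members could be tested, 35 clustered and 8 variant, and 13 clustered members could not. Those 13 together summed to 1.02 to 1.88 CPM, at 1.18 ± 0.251 in NC, 1.45 ± 0.421 in SM2 and 1.18 ± 0.145 in SM4 (SD, n = 3). Among all members, 6 clustered genes shared most of their 50-base stretches with other places in the genome, including H2BC12 (42.8% of its stretches were unique, and 100% of its 150-base stretches were). Its near copy on chromosome 21, H2BC12L, held 7 counts over all libraries. Of the 50-base and 150-base stretches of H2BC12L 0% were unique, so those counts cannot show its level.

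**Figure D2:**
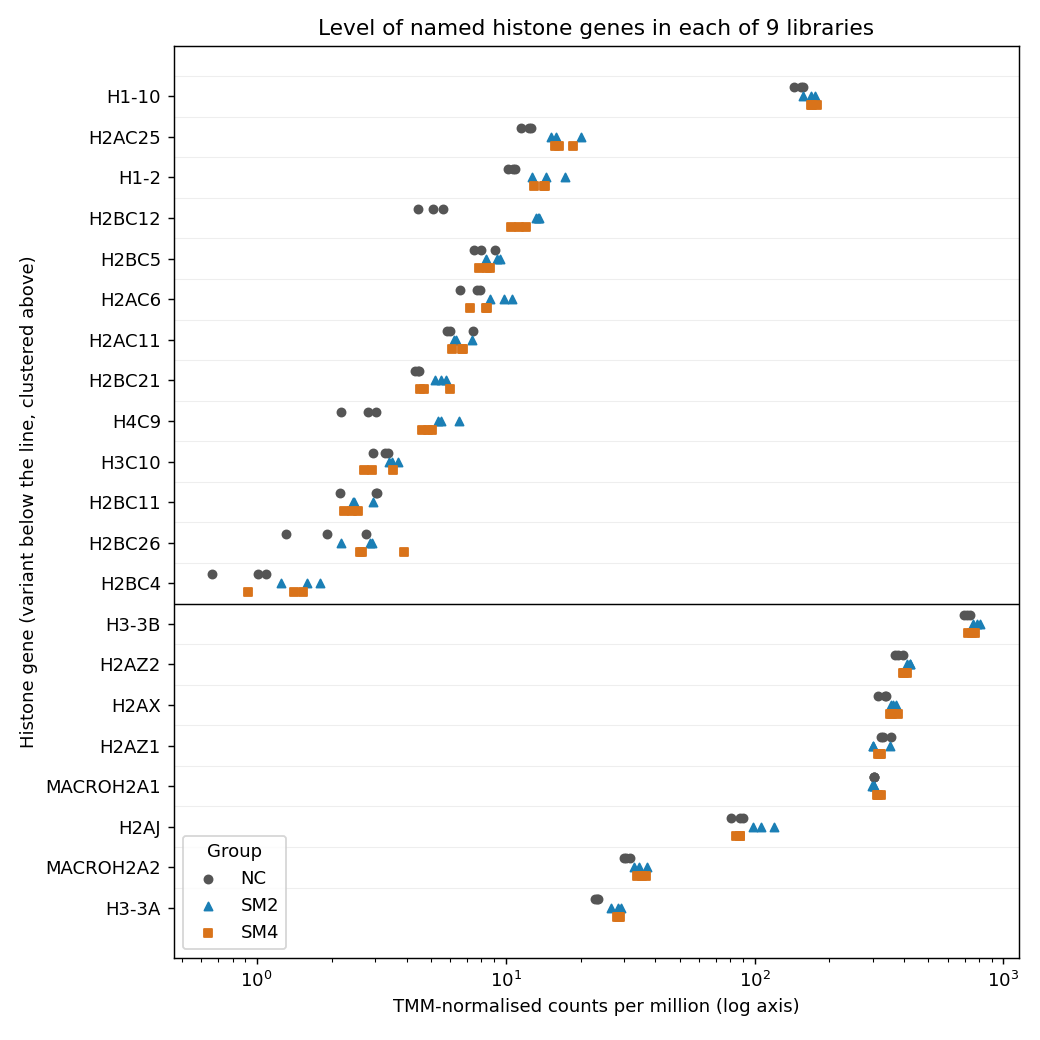
TMM-normalised CPM on a log axis in each of the 9 libraries for the 8 variant members and 13 clustered members named in the text. H2BC12 and H4C9 show NC libraries clearly to the left of SM2 and SM4, while H2AC11 and H2BC11 show groups that overlap.

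Against NC, the libraries labelled SM2 had 13 of 43 tested members called, all of them higher, at an adjusted p below 0.05 by the quasi-likelihood test of edgeR, with p-values adjusted by Benjamini-Hochberg over 19674 genes. This was 30.2% of members, where 22.3% of all genes tested were called (12% higher and 10.3% lower). Of the clustered members 7 of 35 were called, and of the variant members 6 of 8. By the same test 0 members were lower, also at an unadjusted p below 0.05, and DESeq2 called 13 of the 41 members to which it gave an adjusted p, all higher (H1-10 in place of H2BC4). The median log2 fold change of tested members was 0.18, that of clustered members 0.26 and that of variant members 0.14, beside -0.0037 for all genes tested. By sign alone, 31 of 43 members were above 0 and 9705 of 19674 genes were.

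The libraries labelled SM4 had 10 of 43 members called against NC, again all higher (23.3%), where 21.2% of all genes tested were called (11% higher and 10.2% lower). Of the clustered members 7 of 35 were called, and of the variant members 3 of 8. By edgeR 0 members were lower, also at an unadjusted p below 0.05, and DESeq2 called the same 10. The median log2 fold change was 0.078 for members, 0.098 for clustered and 0.072 for variant members, beside -0.0011 for all genes. The share of members called in SM4 was thus near that of all genes. Every member called was higher, whereas over all genes 2367 were called higher and 2022 lower in SM2, and 2167 and 2006 in SM4. Read from SM4, the group with the most METTL3 RNA, the same 10 members were lower in the libraries labelled NC. Both comparisons use the same NC libraries, so the 8 members called in both are not independent of each other.

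**Figure D3:**
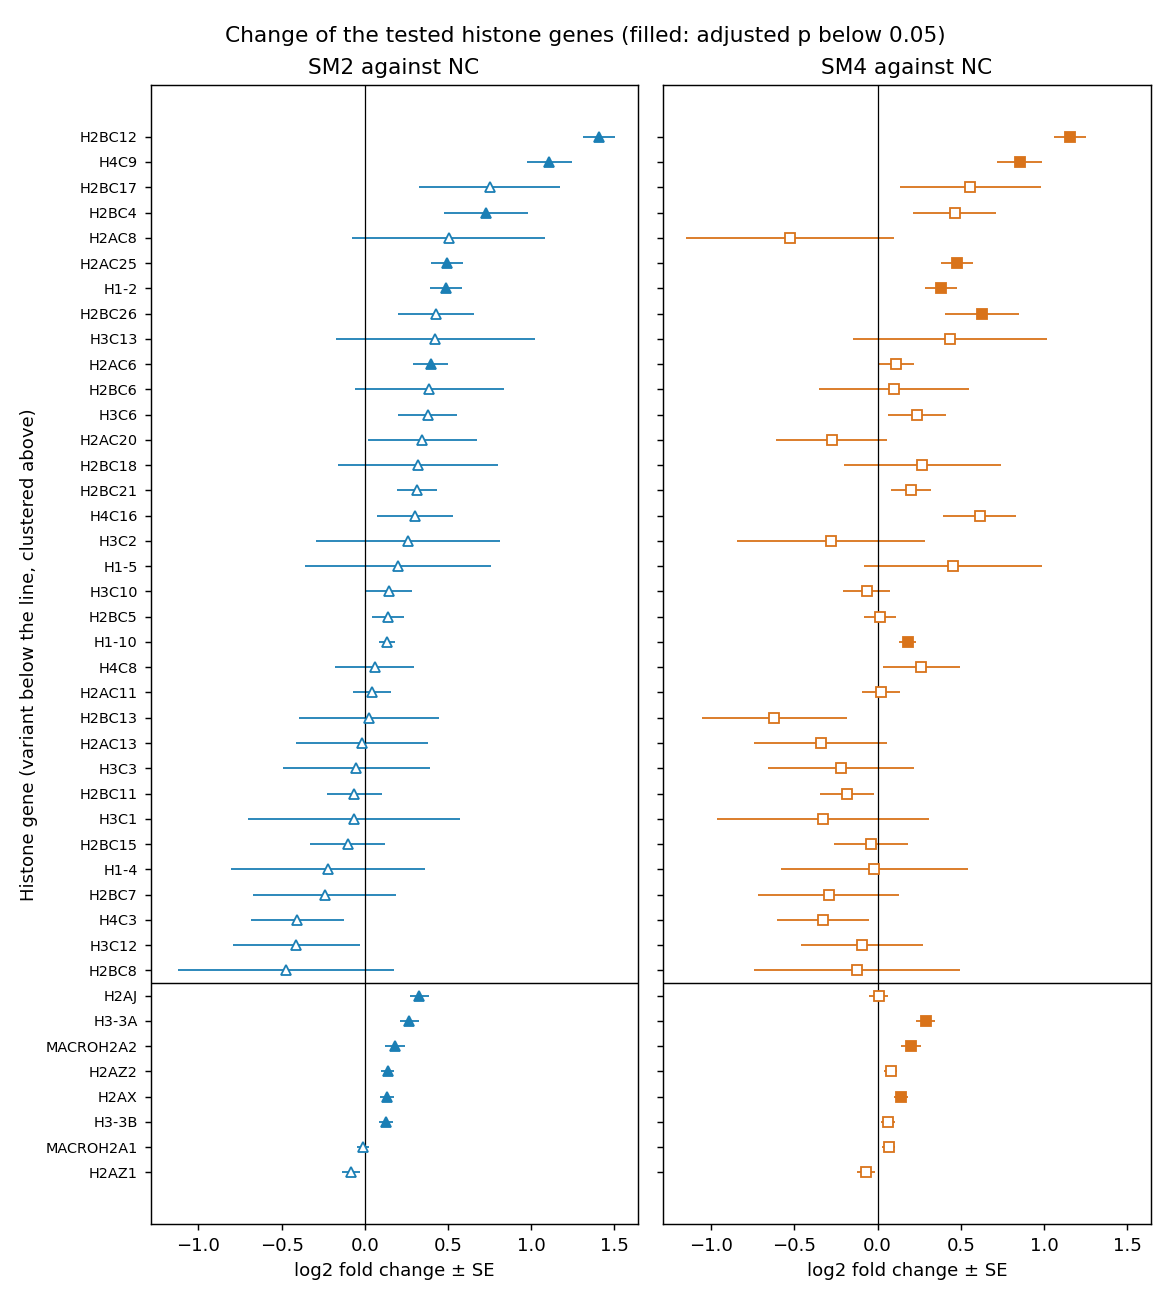
Log2 fold change ± SE from edgeR for 42 of the 43 tested members in SM2 against NC (left) and SM4 against NC (right), with filled symbols for an adjusted p below 0.05. All filled symbols lie right of 0, and the wide bars belong to clustered genes of few counts.

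Against the libraries labelled NC, which both comparisons share, H2BC12 and H4C9 had the largest changes. H2BC12 encodes a histone H2B of the common type. It stood at 5.11, 4.45 and 5.62 CPM in NC, at 13.7, 13.5 and 13.2 in SM2 and at 11.3, 12 and 10.5 in SM4. Its NC libraries were thus all below the other 6, and SM4 lay between NC and SM2. The fold was 2.66 in SM2 (log2 1.41 ± 0.10 SE, adjusted p = 1.47e-09) and 2.23 in SM4 (log2 1.16 ± 0.10, adjusted p = 1.86e-08). H4C9, one of many genes for the same H4 protein, stood at 2.19, 2.80 and 3.02 CPM in NC, at 5.52, 5.37 and 6.51 in SM2 and at 4.87, 5.08 and 4.62 in SM4. It rose 2.16-fold in SM2 (log2 1.11 ± 0.14, adjusted p = 3.7e-06) and 1.81-fold in SM4 (log2 0.85 ± 0.14, adjusted p = 8.01e-05). SM4 again lay between the other groups, with no overlap. For both genes NC and SM2, the groups with less METTL3 RNA than SM4, thus lay at opposite ends. Against SM2, SM4 was lower by a log2 of -0.25 ± 0.09 for H2BC12 (adjusted p = 0.0692) and -0.26 ± 0.13 for H4C9 (adjusted p = 0.215), neither called.

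These genes are neighbours, their starts 7.57 kb apart in the 6p22 cluster. Their surroundings, looked at after their values were seen, held 11 genes with a start within 100 kb of that of H2BC12, of which 5 could be tested. The 3 others tested were not called in either comparison. H2AC11, an H2A gene 13.8 kb away, stood at 5.82, 5.98 and 7.38 CPM in NC, at 7.33, 6.34 and 6.21 in SM2 and at 6.09, 6.72 and 6.71 in SM4, so its groups overlapped (log2 0.05 ± 0.11 and 0.02 ± 0.11). H2BC11, an H2B gene 14.1 kb away and the divergent partner of H2AC11, gave log2 -0.06 ± 0.16 and -0.18 ± 0.16, and a long noncoding gene gave 0.20 ± 0.33 and -0.06 ± 0.33. H2AC12, the head-to-head partner of H2BC12 with its start 251 bases away, held only 1 to 13 counts per library and was not tested.

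**Figure D4:**
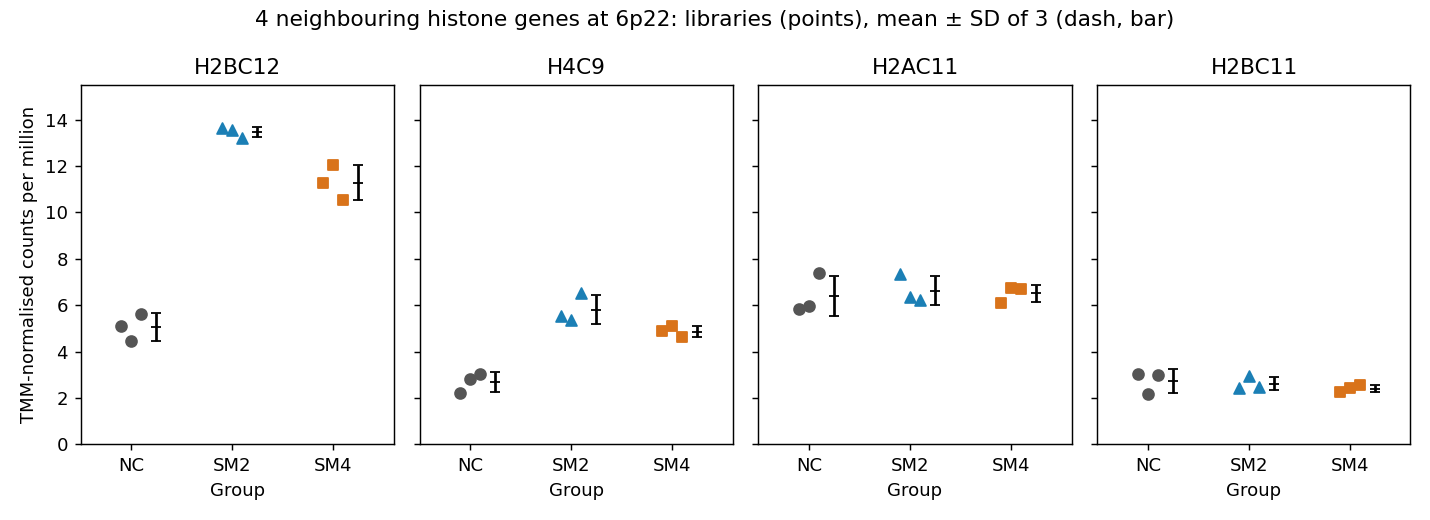
TMM-normalised CPM of 4 neighbouring genes of the 6p22 cluster by group, with libraries as points and the mean ± SD of 3 libraries beside them. H2BC12 rises from 5.06 in NC to 13.5 and 11.3 and H4C9 from 2.67 to 5.80 and 4.86, while H2AC11 stays at 6.39 to 6.63 and H2BC11 at 2.40 to 2.73.

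The 250 bases before the RefSeq start of each gene are shown because they are the region from which these neighbours are read, and they differ in known histone promoter motifs. On the gene's own strand in GRCh38.p14, capitals mark TATAAA boxes, the CCAAT motif and the octamer ATTTGCAT, or their reverse complements. In H2BC12 a pair of TATAAA matches on opposite strands overlap 223 bases before the start.

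H2BC12 (chr6:27146859-27147108, minus strand): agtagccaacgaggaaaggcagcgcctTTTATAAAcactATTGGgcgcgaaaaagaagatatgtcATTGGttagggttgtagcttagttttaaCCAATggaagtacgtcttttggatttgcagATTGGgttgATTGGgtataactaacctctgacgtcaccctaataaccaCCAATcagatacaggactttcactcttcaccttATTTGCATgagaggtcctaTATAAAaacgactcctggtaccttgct
H4C9 (chr6:27139032-27139281, plus strand): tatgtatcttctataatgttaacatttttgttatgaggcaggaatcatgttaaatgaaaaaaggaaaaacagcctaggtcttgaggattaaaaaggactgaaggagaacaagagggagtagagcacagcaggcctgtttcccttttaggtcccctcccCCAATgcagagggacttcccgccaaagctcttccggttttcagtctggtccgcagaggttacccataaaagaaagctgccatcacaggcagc

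The H2BC12 stretch held an octamer 46 bases and a TATAAA 27 bases before the start, and CCAAT matches on both strands. The H4C9 stretch held a CCAAT at 92 bases and neither of the others. Over the promoter windows of RefSeq (250 bases before to 50 after the start, both strands), which matched 42 of 48 clustered members, TATAAA was in 29 of 42 clustered and 3 of 8 variant members and in 12% of 27305 promoters. CCAAT was in 35 of 42 clustered and 6 of 8 variant members and in 35.7% of promoters. The octamer was in 11 of 15 H2B members, 7 of 27 other clustered members, 1 of 8 variant members and 1.80% of promoters.

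Among linker histones, H1-2 was higher in both comparisons. This gene of the 6p22 cluster stood at 10.2, 10.9 and 10.7 CPM in NC, at 14.6, 12.8 and 17.4 in SM2 and at 13.0, 14.3 and 14.2 in SM4. It was higher by log2 0.49 ± 0.10 (adjusted p = 0.000752) and 0.38 ± 0.10 (adjusted p = 0.0061), and by 0.37 ± 0.09 in SM2 without replicate 3. H1-10, a replication-independent linker histone, was called in SM4 alone (152 ± 6.70 CPM in NC, 167 ± 9.27 in SM2 and 172 ± 6.04 in SM4, SD, n = 3), at log2 0.18 ± 0.05 (adjusted p = 0.0107). Its value of 0.13 ± 0.05 in SM2 missed the threshold (adjusted p = 0.0583), and in SM4 it moved to -0.02 when length and GC trends were removed. H1-4 and H1-5 were not called.

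Of the H2A genes, H2AC25 at 1q42 was higher in both comparisons. It stood at 12.4, 12.6 and 11.5 CPM in NC, at 16.0, 15.2 and 20.1 in SM2 and at 16.4, 18.6 and 15.8 in SM4, with no overlap with NC. The difference was log2 0.49 ± 0.10 in SM2 (adjusted p = 0.000756, or 0.36 ± 0.09 without SM2 replicate 3) and 0.48 ± 0.10 in SM4 (adjusted p = 0.000967). Its divergent partner H2BC26, with its start 230 bases away, was called in SM4 (log2 0.63 ± 0.22, adjusted p = 0.0483) and not in SM2 (0.43 ± 0.23, adjusted p = 0.196), and its NC libraries at 2.76, 1.31 and 1.91 CPM overlapped the 2.65, 2.61 and 3.92 of SM4. The H2BC26 call in SM4 was lost without NC replicate 2 (0.39, adjusted p = 0.268), NC replicate 3 (0.60, adjusted p = 0.124) or SM4 replicate 3 (0.41, adjusted p = 0.275). The H2A gene H2AC6 was called in SM2, where 8.62, 9.84 and 10.6 CPM lay above the 7.69, 6.58 and 7.88 of NC (log2 0.40 ± 0.11, adjusted p = 0.00938), while in SM4 it reached 0.11 ± 0.11 (adjusted p = 0.531). Its divergent partner H2BC4, 219 bases away, was also called in SM2, at 0.922 ± 0.229 CPM in NC and 1.55 ± 0.276 in SM2 (SD, n = 3; log2 0.73 ± 0.25, adjusted p = 0.041). Without SM2 replicate 3 the H2BC4 call was lost (0.61 ± 0.28, adjusted p = 0.12). H2BC4 shares 430 exon bases with HFE on the opposite strand, which stood at 32.6 CPM in NC, 39.6 in SM2 and 36.6 in SM4, and whether counting used strand is not given in the sources used here.

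Among the 7 divergent pairs in which both genes were tested, 1 had both genes called in SM2 (H2BC4 and H2AC6) and 1 had both called in SM4 (H2AC25 and H2BC26), each resting on a call that single libraries decide (H2BC4 and H2BC26). No matching share was computed for pairs of other genes. Of all genes tested, taken singly, 22.3% were called in SM2 and 21.2% in SM4. H2B genes were called in 2 of 13 cases (15.4%) in each comparison and H4 genes in 1 of 4 (25%). H3 genes were called in 0 of 7 by edgeR, with 1 of the 7 at an unadjusted p below 0.05 in SM2, 0 in SM4 and 0 called by DESeq2. Other well-measured clustered genes showed small differences: H2BC5 gave log2 0.14 ± 0.10 and 0.01 ± 0.10, H2BC21 0.31 ± 0.12 and 0.20 ± 0.12, and H3C10 0.14 ± 0.14 and -0.07 ± 0.14 in SM2 and SM4, none called. At 6p22, 5 of 26 tested members were called in SM2 (19.2%) and 3 of 26 in SM4 (11.5%), both below the shares of all genes. At 1q21 0 of 4 were called in either by edgeR or DESeq2, with 1 (H2BC21) at an unadjusted p below 0.05 in SM2.

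The variant genes moved by less. H3-3A, 1 of the genes for the replacement histone H3.3, stood at 22.9, 23.3 and 23.5 CPM in NC, at 26.6, 28.3 and 29 in SM2 and at 28.4, 28.7 and 28 in SM4, and no library of SM2 or SM4 overlapped NC. It was higher by log2 0.27 ± 0.06 (adjusted p = 0.00191) and 0.29 ± 0.06 (adjusted p = 0.000928). H3-3B, the other H3.3 gene and the most abundant variant, stood at 714 ± 19.4 CPM in NC and 781 ± 25.3 in SM2 (SD, n = 3), higher by 0.13 ± 0.04 (adjusted p = 0.0274), and at 745 ± 27.4 in SM4 (0.06 ± 0.04, adjusted p = 0.338). The H3-3B call was lost with length and GC trends removed (0.094, adjusted p = 0.105). Of the 50-base stretches of H3-3A 76.7% were unique in the genome, and of those of H3-3B 94.8%, so the level of H3-3A is less certain.

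H2AJ, which encodes the H2A variant H2A.J, known to build up in senescent cells, was the member that differed between SM2 and SM4. It stood at 80.8, 87.5 and 89.6 CPM in NC, at 98.7, 106 and 119 in SM2 and at 87.1, 87.4 and 84.6 in SM4. The SM2 libraries were above all others, and SM4 overlapped NC. Its log2 change was 0.33 ± 0.06 in SM2 (adjusted p = 0.000307, or 0.25 ± 0.05 without SM2 replicate 3) and 0.01 ± 0.06 in SM4 (adjusted p = 0.962).

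H2AX, whose protein is phosphorylated at DNA breaks, stood at 328 ± 12 CPM in NC, 360.0 ± 8.43 in SM2 and 361 ± 14.6 in SM4 (SD, n = 3). It was called higher by log2 0.13 ± 0.04 (adjusted p = 0.0305) and 0.14 ± 0.04 (adjusted p = 0.0248), but the sign turned to -0.08 and -0.03 once length and GC trends were removed. MACROH2A2, 1 of the macroH2A variants of silent chromatin, went from 30.7 ± 0.905 CPM to 34.8 ± 2.20 in SM2 and 35.3 ± 1.39 in SM4, called at log2 0.18 ± 0.06 (adjusted p = 0.0317) and 0.20 ± 0.06 (adjusted p = 0.0179). Both MACROH2A2 calls were lost with length and GC trends removed (0.16, adjusted p = 0.0794, and 0.15, adjusted p = 0.108), and that in SM2 also without SM2 replicate 3 (0.14 ± 0.06, adjusted p = 0.109). AIFM2, which shares 986 exon bases with it on the opposite strand, moved the other way, from 52.3 CPM to 37.5 and 41.3. H2AZ2, which encodes an H2A.Z protein, was called in SM2 only, at 380.0 ± 14.8 CPM in NC and 418 ± 6.40 in SM2 (0.14 ± 0.04, adjusted p = 0.0168).

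H2AZ1 and MACROH2A1 were called in neither comparison with all libraries in the fit. MACROH2A1 held 302 ± 1.26 CPM in NC, 299.8 ± 2.92 in SM2 and 316 ± 6.13 in SM4 (SD, n = 3), a log2 fold change of -0.01 ± 0.04 and 0.07 ± 0.04. H2AZ1, the other H2A.Z gene, stood at 328, 353 and 323 CPM in NC, at 300.1, 298 and 349.7 in SM2 and at 319, 322 and 314 in SM4, with SM2 replicate 3 far above the other SM2 libraries. In SM2 it gave a log2 of -0.08 ± 0.05 (adjusted p = 0.32), and without that library it was -0.16 ± 0.04 (adjusted p = 0.00452), the only member called lower in any setting of SM2 against NC apart from H1-10 in 1 setting.

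Between SM2 and SM4 few members differed. In SM4 against SM2, 1 of 43 members was called, H2AJ, lower by log2 -0.32 ± 0.06 (adjusted p = 0.000673), where 12.8% of all genes tested were called (6.04% higher and 6.76% lower). Of the members 3 were lower at an unadjusted p below 0.05 by edgeR (H2AJ, H2BC12 and H2AC6), and DESeq2 called H2AJ alone, of 30 members with an adjusted p. The 35 clustered members gave 0 calls by edgeR and by DESeq2, with 2 at an unadjusted p below 0.05, and their median log2 fold change was -0.11, beside -0.0002 for all genes.

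As a description of the classes as a whole, the summed level of the 46 clustered members with a stem-loop was 77.7, 76.5 and 84.7 CPM in NC, 105, 102 and 116 in SM2 and 95.8, 102 and 99.2 in SM4, so the 6 libraries of SM2 and SM4 lay above NC, at log2 ratios of 0.43 and 0.31. Without H2BC12 and H4C9 the sum was 71.9 ± 3.64 CPM in NC, 88.3 ± 7.04 in SM2 and 82.9 ± 2.88 in SM4. By family, over the same 46, the log2 ratio of the summed level of SM2 to NC was 0.58 for H4, 0.52 for H2B, 0.48 for H1, 0.36 for H2A and 0.17 for H3. For SM4 it was 0.51 for H4, 0.38 for H2B, 0.38 for H1 and 0.24 for H2A, and the H3 sum was 7.18 CPM in both NC and SM4. Single genes carried much of this: without H4C9 the H4 ratios were 0.05 and 0.21, and without H2BC12 the H2B ratios were 0.20 and 0.12. The variant sum moved less, from 2198 ± 54.4 CPM in NC to 2346 ± 67.7 in SM2 and 2292 ± 61.5 in SM4, ratios of 1.07 and 1.04.

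**Figure D5:**
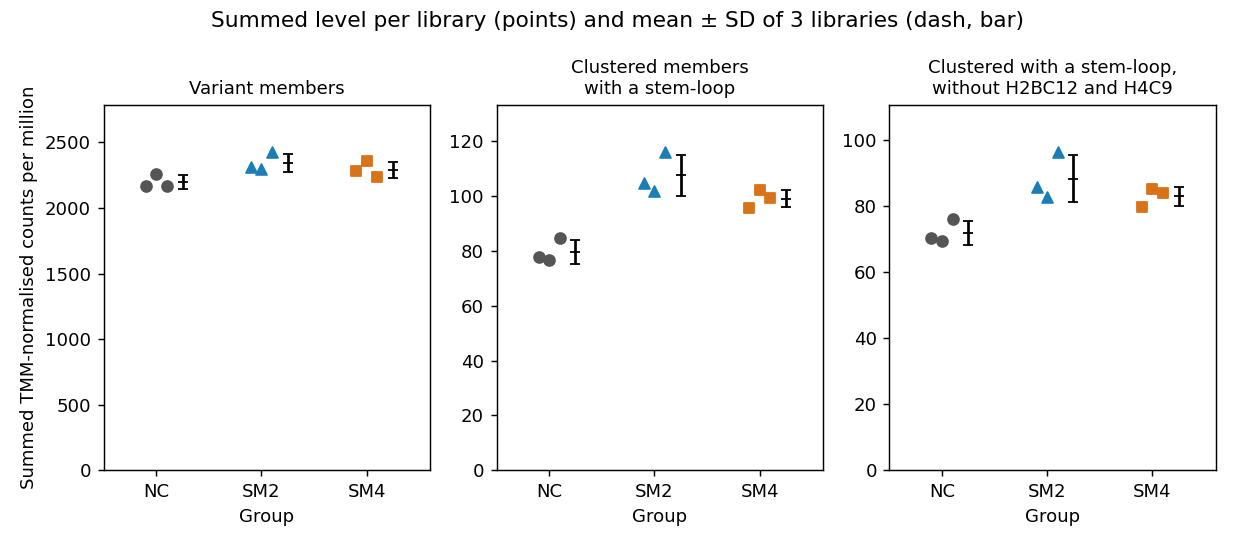
Summed TMM-normalised CPM per library (points) with the mean ± SD of 3 libraries for the variant members, the 46 clustered members with a stem-loop, and the same without H2BC12 and H4C9. The clustered sums of SM2 and SM4 lie above NC in both panels, while the variant sums differ by ratios of 1.07 and 1.04.

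The genes that act on histone genes and histones were counted next, each list beside the shares of all genes given above. Of 15 genes for histone gene transcription and the histone locus body, 4 were called in SM2 (1 higher, 3 lower) and 2 in SM4 (1 higher, 1 lower). CDC25A, the phosphatase that activates CDK2, fell in both (log2 -0.44 and -0.29, from 44.6 CPM to 32.8 and 36.4), and CCNE1, the cyclin E partner of CDK2, fell in SM2 (-0.29, adjusted p = 0.0462) and gave 0.02 in SM4. POU2F1, the octamer-binding factor OCT1, gave -0.07 and 0.19 against NC, neither called. NPAT, the coactivator of histone loci, gave 0.02 and 0.11, not called. The count in SM2 was 2 without NC replicate 1 or SM2 replicate 1, and that in SM4 was 1 without NC replicate 1 and 4 without SM2 replicate 3.

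Of 27 genes for 3′ end processing and turnover of histone messenger RNA, 6 were called in SM2 (1 higher, 5 lower) and 3 in SM4 (all lower), with medians of -0.06 and -0.03. LSM11, a core protein of the U7 snRNP, was lower in SM2 (log2 -0.48 ± 0.09, adjusted p = 0.00046, from 12.8 to 9.17 CPM) and gave -0.22 ± 0.09 in SM4 (adjusted p = 0.0908). LSM10, its partner in that particle, and ERI1, an exonuclease that trims histone messages, were lower in SM4 by -0.24 ± 0.08 and -0.26 ± 0.07. SLBP itself gave 0.09 and 0.03, not called. Without NC replicate 2 the list count was 2 in SM2 and 1 in SM4, and it was also 1 in SM4 without SM4 replicate 1 or SM4 replicate 3.

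Of 30 histone chaperones, 8 were called in SM2 (5 higher, 3 lower) and 7 in SM4 (5 higher, 2 lower). CHAF1B, a subunit of the chromatin assembly factor CAF-1, rose in both (log2 0.24 and 0.17), ASF1A, an H3-H4 chaperone, fell in SM2 (-0.26), and UBN2, of the H3.3-depositing HIRA complex, rose in SM4 (0.38). The chaperone count in SM2 was 5 without NC replicate 1. In SM4 it was 2 without NC replicate 2, SM4 replicate 1 or SM4 replicate 3, 3 without NC replicate 1, 4 without SM4 replicate 2 and 13 without SM2 replicate 3. Of 16 other histone-fold genes that could be tested, 0 were called in SM2 by edgeR or DESeq2, with 2 at an unadjusted p below 0.05, and 2 in SM4, where DR1 and TAF9B, both transcription factor subunits, fell by 0.16 and 0.27 on the log2 scale.

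Because clustered histone genes are read in S phase, S phase and mitosis genes were counted beside them. Of 32 S phase genes 14 were called in SM2 (9 higher, 5 lower) and 10 in SM4 (9 higher, 1 lower), with medians of 0.042 and 0.064. GINS2, of the replicative helicase, rose in SM4 (0.27), and CLSPN, a replication checkpoint protein, fell in SM2 (-0.28). Of 24 mitosis genes 13 were called in SM2 (1 higher, 12 lower) and 8 in SM4 (1 higher, 7 lower), with medians of -0.12 and -0.08. BUB1B, of the spindle checkpoint, fell in both (-0.30 and -0.18), CENPE, a kinetochore motor, fell in SM2 (-0.28), and BIRC5, of the chromosomal passenger complex, fell in SM4 (-0.27). Single libraries moved these counts too. In SM2, S phase calls numbered 8 without NC replicate 1 or 2 and 9 without NC replicate 3 or SM2 replicate 2, and mitosis calls numbered 5 without NC replicate 2, 6 without NC replicate 1 and 7 without SM2 replicate 2. In SM4, S phase calls numbered 3 to 6 without any 1 of the NC or SM4 libraries. The part of the cell cycle in the histone values was not tested, and fewer cells in a phase cannot be told apart from less RNA per cell in bulk libraries.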

How the data were processed

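For each of 9 libraries the authors deposited gene-level counts, not normalised. Per the labels, reads went through fastp, HISAT2 (GRCh38, also given as hg38) and featureCounts of Subread, with versions not given in the sources used here. The annotation, the use of strand and the handling of reads with several matches are not given either. Groups came from the library titles. Identifiers were matched to GENCODE v44 without version, and 0 columns were unused. In R 4.3.3, genes were filtered with filterByExpr and tested by quasi-likelihood in edgeR 4.0.16 in 1 model of all 9 libraries with group as the only term. TMM factors lay between 0.989 and 1.01, and p-values were adjusted by Benjamini-Hochberg over 19674 genes. DESeq2 1.42.0 was an alternative, and the code was tested on simulated data. Counts have no molecular identifiers, so depth gives counting error only.

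The genes named are METTL3, all variant members, the 12 clustered members with the highest CPM, the 4 largest called changes in each direction, the members at the minimum, overlapping partners, and the largest 3 called changes of each list, and 1 gene so chosen is not reported here. SLBP, NPAT, H4C16, H1-4, H1-5, H2AC12, H2BC12L and the neighbours of H2BC12 were named after their values were seen. The members and lists were chosen with earlier results of these data known. Promoters came from RefSeq (GRCh38.p14).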

Additional observations from a re-analysis of the deposited data

Results flagged for a closer look

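A member and METTL3 differed between SM2 and SM4 in a test of the difference itself (SM4 against SM2 in edgeR, adjusted by Benjamini-Hochberg). H2AJ was lower in SM4 by log2 -0.32 (adjusted p = 0.000673), being higher than NC in SM2 and within the NC range in SM4, with no overlap between the 3 SM2 and the 3 SM4 libraries. METTL3 was higher in SM4 by 0.63 (adjusted p = 7.46e-08).

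Genes of the lists differed in the same test. BIRC5 was lower in SM4 by -0.23 (adjusted p = 0.00113) and CHRAC1, a histone-fold subunit of a chromatin remodeller, by -0.18 (adjusted p = 0.0335). PECAM1 was higher in SM4 by 0.73 (adjusted p = 1.07e-05), UBN2 by 0.33 (adjusted p = 0.0471), CCNE1 by 0.31 (adjusted p = 0.049), POU2F1 by 0.25 (adjusted p = 0.0213), CLSPN by 0.22 (adjusted p = 0.00348) and CENPE by 0.15 (adjusted p = 0.0313). Groups of 3 libraries are too small for a test of single outlying libraries.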

How the results depend on the processing

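Over 19 alternatives, 7 calls of SM2 against NC (among them H3-3A, H2AC25, H1-2, H4C9, H2BC12 and H2AJ) and 6 of SM4 against NC (the same 7 without H2AJ) were kept under all. The number of members called lay between 9 and 13 in SM2 and between 7 and 10 in SM4 without 1 library each, and between 1 and 2 in SM4 against SM2. At an adjusted p below 0.01 it was 8 in SM2 and 6 in SM4. Leaving out 1 library lost these calls in SM2, each without any 1 of the libraries named: H2BC4 (NC replicates 1 and 2, SM2 replicates 1 and 3, SM4 replicate 2; log2 0.55 to 0.87 over all 9 removals), MACROH2A2 (NC 1 and 2, SM2 2 and 3; 0.14 to 0.22), H2AX (NC 1 and 2, SM2 2, SM4 1; 0.10 to 0.15), H2AZ2 (NC 1 and 3, SM2 2; 0.11 to 0.17), H3-3B (NC 1 and 3, SM4 1; 0.11 to 0.15) and H2AC6 (NC 2; 0.32 to 0.47). In SM4 it lost MACROH2A2 (0.17 to 0.23) and H2AX (0.11 to 0.16) without NC 1 or 2 or SM4 1 or 2, H2BC26 without NC 2 or 3 or SM4 3 (0.39 to 0.91) and H1-10 without NC 1 or SM4 2 (0.15 to 0.20).

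With length and GC trends removed, H2AX turned to -0.078 in SM2 and -0.033 in SM4 (with the replicate block as well, -0.078 and -0.034) and H1-10 to -0.016 in SM4 (-0.017 with the block), and H1-10 was called lower in SM2 with the block (-0.11); the cause was not tested. Without the block the same removal lost the calls of MACROH2A2 (0.16), H2AX and H3-3B (0.094) in SM2 and of MACROH2A2 (0.15), H2AX and H1-10 in SM4, while H4C16 was gained in SM4. Replicate numbers showed little sign of pairing the libraries. Correlations of same-numbered deviations lay between -0.053 and 0.045, and those of differently numbered ones between -0.065 and 0.092. With the replicate number as a block, 14 members were called in SM2, 10 in SM4 and 1 in SM4 against SM2. Of all genes, the block gave 4693, 4484 and 2815 calls in these comparisons, beside 4389, 4173 and 2518 without it.

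The log2 ratio of the clustered sum over all 48 members was 0.32 for SM2 over NC, 0.36 for SM4 over NC and 0.04 for SM4 over SM2. Over fewer members it was 0.24, 0.23 and -0.015, and over the 46 with a stem-loop it was 0.43 in SM2 against NC and -0.12 in SM4 against SM2. The variant sum gave 0.09 and 0.06 against NC, and 0.16 and 0.15 with the other 2 members added. Leaving out 1 library moved list counts against NC to between 8 and 14 in SM2 and 3 and 14 in SM4 for S phase genes, 5 and 13 and 6 and 12 for mitosis genes, 5 and 9 and 2 and 13 for chaperones, and 2 and 7 and 1 and 4 for 3′ end processing. The 13 untested members had too few counts for the filter, and the cause of their low counts was not tested. Among them, 0% of the 50-base stretches of H4C14 were unique in the genome.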
